A study of Mus musculus with 16 samples.

Results

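The 10 genes described here encode proteins of fast transmitter release and the SV2 family of synaptic vesicle proteins. They are Syt1, Syt2, Syt7, Cplx1, Cplx2, Vamp1, Vamp2, Sv2a, Sv2b and Sv2c, taken by name from the 54532 genes of the deposited tables. All 10 were found and all passed the filter on low counts that left 26257 genes for testing. The libraries were RNA-seq libraries of parvalbumin (PV) interneurons sorted from the cortex of adult mice, 7 from PV-Cre;lsl-eGFP-GluA2 mice and 9 from PV-Cre;lsl-eGFP mice. In both genotypes Cre recombinase was driven by PV and removed a stop cassette (lsl) from the transgene. PV cells of the 7 then made the AMPA receptor subunit GluA2 fused to eGFP, and PV cells of the 9 made eGFP alone. Mouse age was 113.1 ± 11.6 days across the study, and cells were fixed before sorting on green fluorescence and a nuclear dye. The labels number the libraries as biological replicates with cells collected per mouse cortex, so each library pools many cells of 1 brain. In such bulk samples, fewer cells of a type and less RNA per cell cannot be told apart.

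Vesicles fuse at the nerve terminal when the vesicle SNARE protein synaptobrevin (VAMP) zips together with its partners on the plasma membrane. Synaptotagmins bind calcium and trigger the fusion, with Syt1 and Syt2 as fast sensors and Syt7 as a slower one of high affinity. Complexins clamp the partly zipped SNARE complex and help the fast step. SV2 proteins are transporter-like glycoproteins of the vesicle membrane that bind synaptotagmin. Fast-spiking PV interneurons are known for release that is tightly timed to the spike, and Syt2 is used as a marker of their terminals in cortex.

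Each library held 7454165 to 15462544 counts in all. A background of reads in 1721 genes of odorant and vomeronasal receptors, which nasal neurons use, set the libraries apart. It was 92.8 to 177 CPM (counts scaled to the library total) in 5 low-background libraries (eGFP-GluA2 replicates 6 and 7, eGFP replicates 7 to 9). It was 724 to 1365 CPM in 5 middle ones (eGFP-GluA2 replicates 2, 4 and 5, eGFP replicates 5 and 6). In 6 high-background libraries (eGFP-GluA2 replicates 1 and 3, eGFP replicates 1 to 4) it was 2035 to 4407 CPM. Of the variance in log2 CPM, 84.0% lay on 1 principal component, whose correlation with the log2 background over the 16 libraries was r = -0.998. The summed level of 10 PV interneuron markers was 5799 to 9592 CPM in eGFP-GluA2 libraries and 5524 to 9256 CPM in eGFP libraries, and none of the 10 was at 0. With TMM scaling, Gria2, the GluA2 gene, had 718, 928 and 1215 CPM (lowest, median and highest) in eGFP-GluA2 libraries, against 472, 542 and 783 CPM in eGFP libraries. Its log2 fold change was 0.71 ± 0.16, with an adjusted p of 1.00 in edgeR's quasi-likelihood test. The only gene past the threshold, an adjusted p of 0.05, was Gt(ROSA)26Sor, a noncoding RNA of the Rosa26 locus, with a log2 fold change of 2.30 ± 0.22.

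The 10 genes spanned a wide range of level, measured as TPM, a level scaled for transcript length and library total. Cplx1, a complexin of many inhibitory neurons, averaged 308 ± 107 TPM over the 16 libraries (SD) and ranked at place 117 among all 54532 genes. Syt1 followed with 299 ± 82.7 TPM, and Cplx1 lay above Syt1 in 11 of 16 libraries, so their order did not hold in every library. Syt2 averaged 209 ± 93.2 TPM and Sv2a, the SV2 paralogue of most brain synapses, 182 ± 59.5 TPM, with Syt2 above Sv2a in 12 of 16 libraries. These 4 genes were thus among the 204 highest of the tables, with Syt1 above Syt2 and Sv2a above Vamp1 in all 16 libraries. The VAMP genes came next, Vamp1 at 127 ± 50.0 TPM and Vamp2 at 84.2 ± 22.4 TPM, with Vamp1 the higher in 15 of 16 libraries. Syt7 averaged 37.5 ± 10.9 TPM, below Vamp2 in all 16 libraries. A wide gap then set off the last 3. Cplx2 averaged 6.47 ± 0.958 TPM, Sv2b 3.59 ± 1.57 TPM and Sv2c 1.65 ± 1.16 TPM, at place 16729. Sv2b lay above Sv2c in 14 of 16 libraries.

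**Figure D1:**
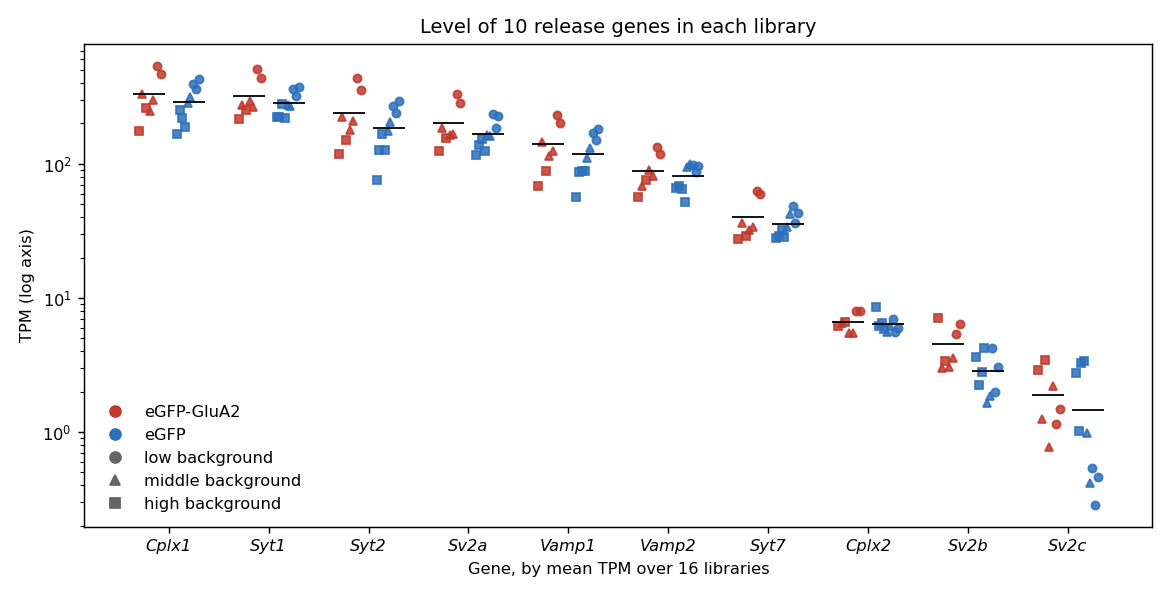
TPM of the 10 genes in each of the 16 libraries on a log axis, with eGFP-GluA2 at the left and eGFP at the right of each gene. Points are libraries, their shape gives the background, and lines are group means (n = 7 and 9). The 7 abundant genes sit far above Cplx2, Sv2b and Sv2c, and the groups overlap for all 10.

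Among the calcium sensors, no difference between genotypes was larger than the spread between libraries. Levels within a gene are given below as CPM with TMM scaling, and differences as log2 fold changes of eGFP-GluA2 over eGFP ± SE from edgeR's quasi-likelihood fit over all tested genes. Syt1, on chromosome 10 (chr10:108497650-109010982, minus strand, GRCm38), had 818, 1583 and 1966 CPM (lowest, median and highest) in eGFP-GluA2 libraries, against 764, 1660 and 2040 CPM in eGFP libraries. Its log2 fold change was 0.02 ± 0.25 (95% interval -0.51 to 0.56). Both groups covered nearly the same span. Syt2 (chr1:134646677-134762593, plus strand) had 470, 1177 and 1573 CPM in eGFP-GluA2 libraries, against 296, 1141 and 1521 CPM in eGFP libraries. The groups overlapped, and the lowest library of all was eGFP replicate 1. The log2 fold change of Syt2 was 0.13 ± 0.34 (95% interval -0.59 to 0.84), and without eGFP replicate 1 it was 0.01. Syt7 (chr19:10389090-10453180, plus strand) had 146, 281 and 326 CPM in eGFP-GluA2 libraries, against 145, 294 and 340 CPM in eGFP libraries. Its log2 fold change was 0.02 ± 0.22 (95% interval -0.46 to 0.49). The adjusted p of each sensor was 1.00. In the Syt7 exons, 5.13% of bases are shared with an antisense gene, Gm26859, and the library kit and counting were not stated to keep strand, so reads there cannot be assigned.

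The complexins and VAMPs also overlapped fully between genotypes. Cplx1 (chr5:108518554-108550024, minus strand) had 462, 1291 and 1440 CPM in eGFP-GluA2 libraries, against 416, 1265 and 1539 CPM in eGFP libraries. Cplx2 (chr13:54371349-54383917, plus strand), the complexin that many excitatory neurons carry, had 23.5, 42.1 and 49.0 CPM in eGFP-GluA2 libraries, against 20.6, 40.0 and 47.7 CPM in eGFP libraries. Their log2 fold changes were 0.03 ± 0.32 for Cplx1 and 0.01 ± 0.18 for Cplx2 (95% interval -0.38 to 0.39). Vamp1 (chr6:125215551-125245964, plus strand), the VAMP that prevails in spinal cord and brainstem, had 207, 569 and 660 CPM in eGFP-GluA2 libraries, against 167, 503 and 705 CPM in eGFP libraries. Vamp2 (chr11:69088490-69092384, plus strand), the VAMP of most forebrain terminals, had 111, 256 and 318 CPM in eGFP-GluA2 libraries, against 91.4, 267 and 345 CPM in eGFP libraries. In each case the lowest eGFP-GluA2 and the lowest eGFP library were high-background ones. The log2 fold changes were 0.06 ± 0.32 for Vamp1 and -0.04 ± 0.29 for Vamp2, and all 4 adjusted p-values were 1.00.

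In the SV2 family, Sv2a did not differ beyond its spread, while Sv2b and Sv2c had the highest fold changes of the 10 genes without passing the test. Sv2a (chr3:96181151-96195521, plus strand) had 593, 1325 and 1595 CPM in eGFP-GluA2 libraries, against 519, 1278 and 1535 CPM in eGFP libraries. Its log2 fold change was 0.11 ± 0.27. Sv2b (chr7:75114894-75309262, minus strand), which is carried mainly by glutamatergic neurons of the forebrain, had 15.5, 27.5 and 38.5 CPM in eGFP-GluA2 libraries, against 15.3, 19.6 and 30.8 CPM in eGFP libraries. The group means were 27.0 ± 6.84 CPM in eGFP-GluA2 and 20.4 ± 4.92 CPM in eGFP libraries (SD, n = 7 and 9), from 175 to 445 and from 125 to 372 counts per library. The groups overlapped, and 6 of the 7 eGFP-GluA2 libraries lay above the eGFP median. The log2 fold change of Sv2b was 0.40 ± 0.17 (95% interval 0.04 to 0.76), with an unadjusted p of 0.031 and an adjusted p of 1.00 in edgeR. Unadjusted p-values under 0.05 with a higher level were found for 0.564% of all tested genes. Without eGFP-GluA2 replicate 7 the log2 fold change was 0.29.

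Sv2c (chr13:95954594-96132577, minus strand), the SV2 paralogue of few neuron types, had 9.70, 11.9 and 17.1 CPM in eGFP-GluA2 libraries, against 2.86, 9.41 and 15.0 CPM in eGFP libraries. The groups overlapped, but the 3 lowest libraries were all eGFP ones of low background. Counts behind these values were 88 to 148 in eGFP-GluA2 and 33 to 188 in eGFP libraries. The log2 fold change was 0.47 ± 0.29 (95% interval -0.14 to 1.08), with an unadjusted p of 0.121. With the log2 background as a covariate in the same edgeR fit, it was 0.62 ± 0.16 (95% interval 0.28 to 0.96), with an unadjusted p of 0.00094 and an adjusted p of 0.547. In that fit Sv2b was at 0.37 ± 0.13 (95% interval 0.11 to 0.64), with an unadjusted p of 0.0071 and an adjusted p of 1.00. Unadjusted p-values under 0.05 with a higher level were found for 2.12% of all genes there.

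The Sv2c values separated by background. In the low-background libraries Sv2c had 9.70 and 10.6 CPM in eGFP-GluA2, against 5.79, 4.02 and 2.86 CPM in eGFP. In the middle ones it had 11.9, 11.2 and 17.1 CPM in eGFP-GluA2, against 9.82 and 7.58 CPM in eGFP. In the high ones it had 14.9 and 13.1 CPM in eGFP-GluA2, against 9.41, 12.7, 14.5 and 15.0 CPM in eGFP. The groups thus did not overlap in the low and middle libraries and overlapped in the high ones. The differences in mean log2 CPM were 1.28 in the low, 0.60 in the middle and 0.13 in the high libraries. Sv2b had 27.5 and 38.5 CPM in low-background eGFP-GluA2 libraries, against 30.8, 19.6 and 23.2 CPM in eGFP. In the middle ones it had 23.8, 28.1 and 28.8 CPM in eGFP-GluA2, against 15.8 and 15.3 CPM in eGFP, without overlap, and in the high ones the groups overlapped (26.7 and 15.5 CPM in eGFP-GluA2, 22.3, 22.2, 15.8 and 18.7 CPM in eGFP). Its differences in mean log2 CPM were 0.43 in the low, 0.78 in the middle and 0.06 in the high libraries. Such small sets give many separations. In the low libraries 9.23% of all tested genes had every eGFP-GluA2 value above every eGFP value, and of the 10 release genes these were Syt2 and Sv2c. In the middle libraries the share was 8.86%, with Sv2b and Sv2c. A share of 9.22% lay wholly below in the middle libraries, with Vamp2 at a difference of -0.33. In the high libraries 5.64% lay above and 5.5% below, and none of the 10 did either. Over all 16 libraries 0.00381% of genes lay wholly above and 0.0152% wholly below, and all 10 release genes overlapped.

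**Figure D2:**
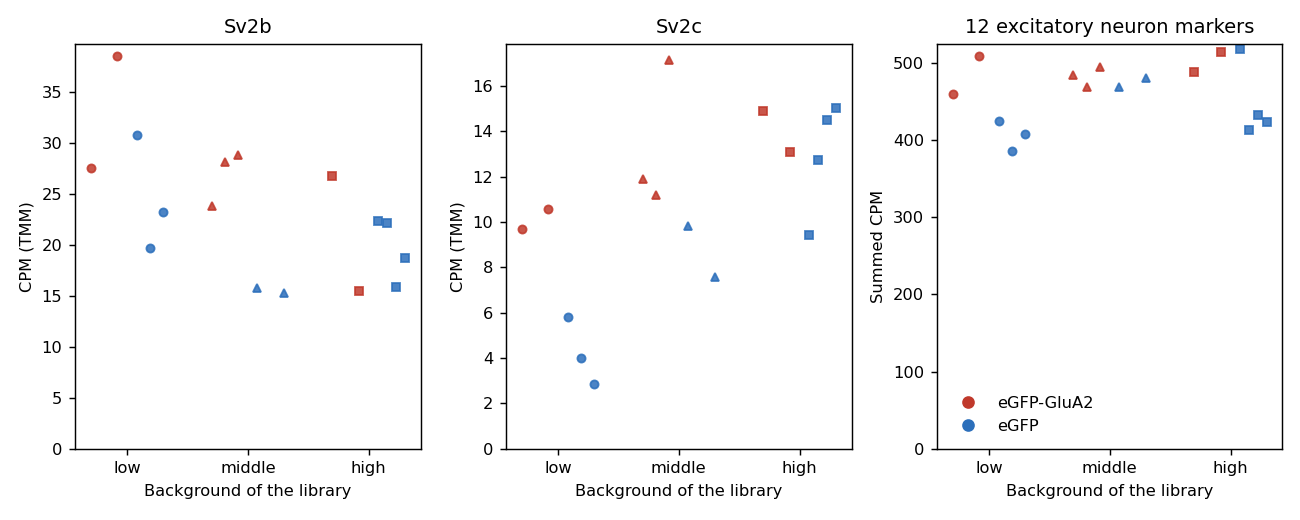
CPM of Sv2b and Sv2c and the summed CPM of 12 excitatory neuron markers in each library, by the background of the library, with eGFP-GluA2 at the left and eGFP at the right. Sv2c separates by genotype in low- and middle-background libraries and not in high-background ones. The marker sum, scaled to library totals, runs from 460 to 514 CPM in eGFP-GluA2 and from 385 to 517 CPM in eGFP libraries.

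Markers of excitatory neurons had values in the same direction as Sv2b. Of 12 such markers, none was at 0, 10 had a log2 fold change above 0 with a median of 0.19, none passed the test in edgeR or DESeq2, and 1 had an unadjusted p under 0.05 in each. That 1 was Slc17a7, the vesicular glutamate transporter of cortical excitatory neurons, with 45.9 ± 14.7 CPM in eGFP-GluA2 and 30.7 ± 8.71 CPM in eGFP libraries (SD, n = 7 and 9) and a log2 fold change of 0.58 ± 0.22. Marker sums in this paragraph are scaled to library totals, not by TMM. The summed excitatory markers had a median of 488 CPM in eGFP-GluA2 and 424 CPM in eGFP libraries. With the mean level of these markers and the background as covariates, the log2 fold change was -0.04 ± 0.18 for Sv2b and 0.26 ± 0.25 for Sv2c. With the background covariate alone, 11 of the 12 markers were above 0 and 4 had an unadjusted p under 0.05. Markers of other cells also had values above 0. Of 8 markers of other interneurons, 6 were above 0 in edgeR. The sum of the 8 had a median of 197 CPM in eGFP-GluA2 and 177 CPM in eGFP libraries. Its ranges overlapped, at 146 to 221 CPM in eGFP-GluA2 and 141 to 211 CPM in eGFP. Lamp5, a marker of neurogliaform cells, was at 0.51 ± 0.14 with an unadjusted p of 0.0020 and an adjusted p of 1.00 (with the covariate 0.52 ± 0.13, 0.00040 and 0.429). The neuropeptide genes Npy and Sst were at 0.45 ± 0.27 and 0.48 ± 0.35. Cnr1, Htr3a and Vip were at 0.16, 0.07 and 0.01, and Cck and Calb2 lay below 0, at -0.18 ± 0.28 and -0.21 ± 0.83. Of 6 oligodendrocyte markers 5 were above 0, with a summed median of 119 CPM in eGFP-GluA2 and 90.1 CPM in eGFP libraries. The ranges of that sum overlapped, at 97.2 to 133 CPM in eGFP-GluA2 and 78.0 to 152 CPM in eGFP. Of 5 microglia markers 4 were above 0, of 6 astrocyte markers 1 and of 5 endothelial markers 1. None of these markers was at 0 in all libraries, and none passed the test. The fit with excitatory markers cannot decide where the Sv2b reads come from, because the markers themselves were mostly higher in eGFP-GluA2 libraries. In that fit the SE of Syt1 was 0.26, against 0.15 with the background covariate alone. Whether RNA of other cells has a part in the Sv2b and Sv2c values was not tested.

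Over the list, no gene passed the test, and most values lay slightly above 0 without the covariate. In edgeR 0 of 10 were called, as were 0.00381% of all genes, and in DESeq2 0 of 10, against 0.0533% of all genes. Sv2b alone had an unadjusted p under 0.05 in each tool, against 1.12% of all genes in edgeR and 1.69% in DESeq2. With the background covariate 0 of 10 were called, against 0.0343% of all genes, and Sv2b and Sv2c had unadjusted p-values under 0.05, against 3.78% of all genes. Log2 fold changes were above 0 for 9 of 10 with a median of 0.05, and for 45.5% of all tested genes with a median of -0.02; in DESeq2 they were above 0 for 8 of 10. With the covariate these were 6 of 10 with a median of 0.05, and 53.1% of all genes with a median of 0.01. The levels of most of these genes vary together between libraries, so their signs are not independent. The intervals set how much difference could be seen. With the covariate, SEs of the 10 genes were 0.12 to 0.20, and the 95% interval ran from -0.32 to 0.31 for Syt1, from -0.28 to 0.50 for Syt2 and from -0.31 to 0.43 for Vamp1. In the authors' deposited table, Sv2b had a log2 fold change of 0.40 with a p-value of 0.0042 and an adjusted p-value of 1.00, Sv2c one of 0.14 and Syt2 one of 0.08. The authors' SE for Syt2 was 0.15, against 0.34 in edgeR without the covariate. Their fit thus differs, and its fold changes do not compare directly with those above.

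**Figure D3:**
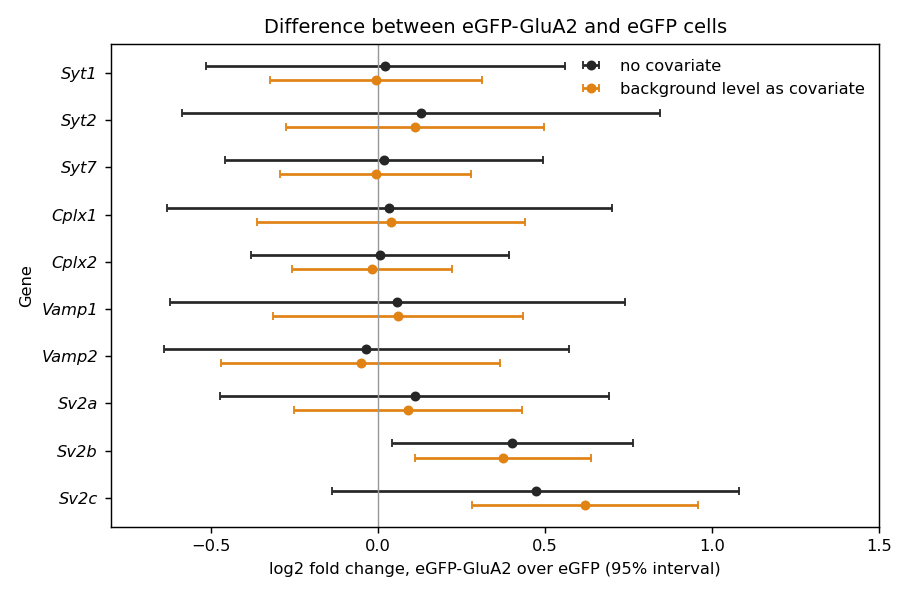
Log2 fold change of eGFP-GluA2 over eGFP for the 10 genes with 95% intervals from edgeR's quasi-likelihood fit, without a covariate (black) and with the log2 background as covariate (orange). Intervals narrow with the covariate for all 10 genes, and those of Sv2b and Sv2c then lie above 0, with adjusted p-values of 1.00 and 0.547.

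Between libraries, most of the release genes differed more with the background than with genotype. From high- to low-background libraries the mean log2 CPM was higher by 1.49 for Syt2, 1.39 for Vamp1, 1.28 for Cplx1 and 1.14 for Sv2a. It was higher by 1.04 for Syt1, 1.01 for Vamp2, 0.90 for Syt7, 0.69 for Cplx2 and 0.45 for Sv2b. Syt2 had 1517 ± 58.3 CPM in the low (SD, n = 5), 1211 ± 79.4 CPM in the middle (n = 5) and 571 ± 194 CPM in the high libraries (n = 6), with no overlap between neighbouring sets. Sv2c went the other way, at 6.59 ± 3.41 CPM in the low, 11.5 ± 3.54 CPM in the middle and 13.3 ± 2.11 CPM in the high libraries, a difference of -1.14. Its difference from high to low libraries was -0.46 within eGFP-GluA2 and -1.60 within eGFP. Of the 10 genes, 9 were higher in the low-background libraries, with a median difference of 1.02, though Sv2b was not with total-count scaling. Over all tested genes 43.9% were higher there (median -0.19), and over the 5893 genes with a mean log2 CPM of at least 5 it was 98.0% (median 0.70). With scaling by total counts in place of TMM the median of all genes moved to -0.72. The differences were then 0.97 for Syt2, 0.88 for Vamp1 and -1.67 for Sv2c, and that of Sv2b changed sign to -0.06. Other measures moved with the background as well. The marker sums that follow are scaled to library totals, not by TMM, so they do not compare directly with the TMM values above. The summed PV markers averaged 9166 CPM in the low, 7789 CPM in the middle and 6244 CPM in the high libraries. The endothelial markers went the direction of Sv2c, at 8.45 CPM in the low, 22.5 CPM in the middle and 59.4 CPM in the high libraries, as did the microglia markers at 12.05 CPM in the low, 15.83 CPM in the middle and 29.89 CPM in the high ones. The other lists did not go that way. In the low, middle and high libraries, astrocyte markers averaged 112, 98.8 and 90.5 CPM and those of other interneurons 194, 191 and 167 CPM. Oligodendrocyte markers at 113, 92.4 and 115 CPM and excitatory markers at 437, 479 and 465 CPM had no steady direction. Mitochondrial genes held 1.604 to 2.55% of TPM in the low, 1.06 to 1.31% in the middle and 0.078 to 1.19% in the high libraries. Genes with a count numbered 30087 to 33334 in the low, 42552 to 46496 in the middle and 47975 to 49971 in the high libraries. Why the background differs is not given by the labels, and the part of these measures in the levels of the release genes was not tested.

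**Figure D4:**
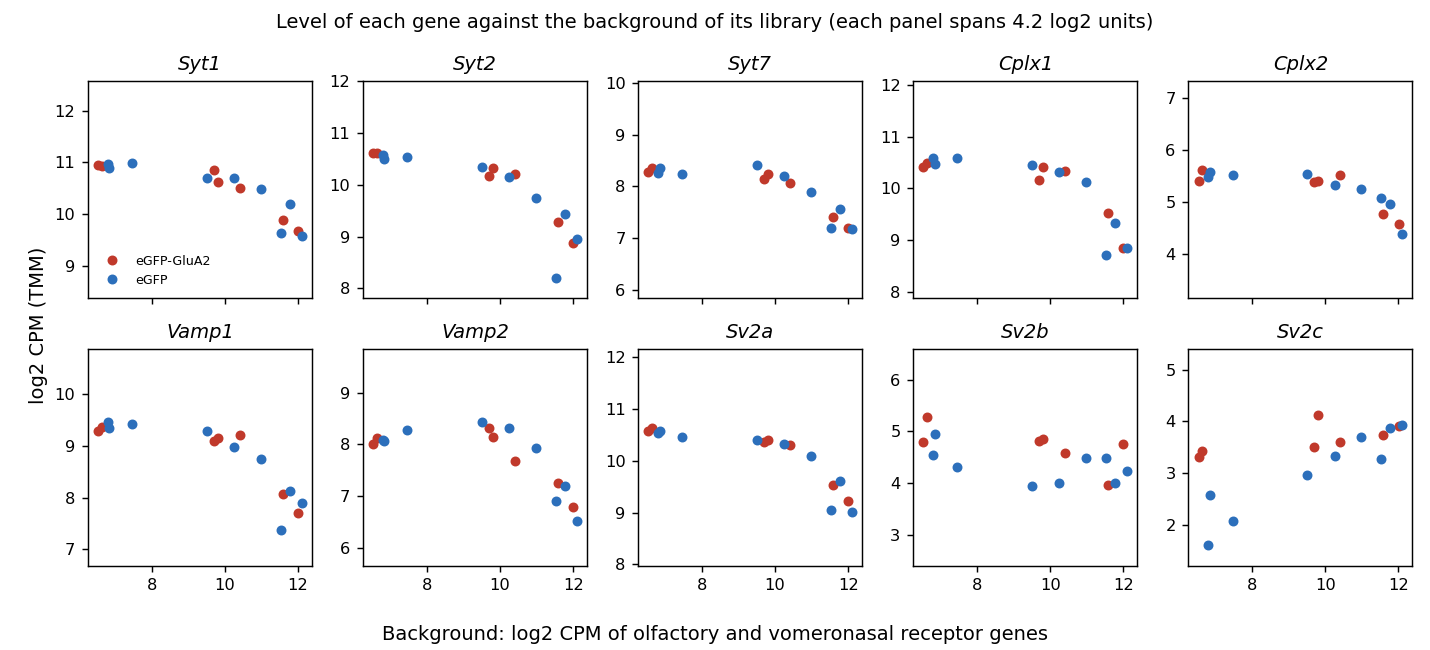
Log2 CPM (TMM) of each gene against the log2 CPM of olfactory and vomeronasal receptor genes in its library, red for eGFP-GluA2 and blue for eGFP. The points of 9 genes are lower at high background, Sv2b least of these and with the sign changed under total-count scaling, and those of Sv2c are higher.

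Paralogue shares compare genes inside 1 library. Of the summed TPM of Syt1, Syt2 and Syt7, Syt1 held 54.5 ± 4.03% in eGFP-GluA2 and 56.9 ± 4.99% in eGFP libraries (SD, n = 7 and 9). Syt2 held 38.8 ± 4.23% and Syt7 6.76 ± 0.45% in eGFP-GluA2 libraries, against 35.9 ± 5.57% for Syt2 and 7.21 ± 0.89% for Syt7 in eGFP libraries. Syt1 was the larger of these shares in every library, and pooled cells do not show which of them held its reads. The Syt1 share was 52.3 ± 1.40% in low- and 60.3 ± 3.87% in high-background libraries (SD, n = 5 and 6). Cplx1 held 97.9 ± 0.65% of the complexin TPM in eGFP-GluA2 and 97.6 ± 1.08% in eGFP libraries, so Cplx2 was a minor part. Vamp1 held 60.0 ± 5.34% of the VAMP TPM in eGFP-GluA2 and 58.5 ± 6.16% in eGFP libraries. Sv2a held 96.5 ± 1.91% of the SV2 TPM in eGFP-GluA2 and 97.2 ± 1.74% in eGFP libraries. Sv2b held 2.37 ± 1.30% and Sv2c 1.08 ± 0.79% in eGFP-GluA2 libraries, against 1.76 ± 0.81% for Sv2b and 1.00 ± 1.00% for Sv2c in eGFP libraries. All shares overlapped between genotypes over the 16 libraries. The shares of Syt2 and Vamp1 were higher in low-background libraries, at 41.3 ± 1.46% and 63.8 ± 1.01%, than in high-background ones, at 32.2 ± 4.48% and 55.3 ± 5.59% (SD, n = 5 and 6). Within the low-background libraries 3 shares did not overlap between genotypes. Syt1 held 50.5 to 51.2% in eGFP-GluA2 and 52.3 to 53.9% in eGFP, Syt2 held 41.8 to 43.2% in eGFP-GluA2 and 39.6 to 41.6% in eGFP, and Sv2c held 0.34 to 0.51% in eGFP-GluA2 and 0.15 to 0.23% in eGFP. Within the middle ones another 3 did not. Syt7 held 6.39 to 6.76% in eGFP-GluA2 and 6.98 to 8.20% in eGFP, Sv2a held 96.7 to 97.7% in eGFP-GluA2 and 98.4 to 98.6% in eGFP, and Sv2b held 1.604 to 2.047% in eGFP-GluA2 and 0.99 to 1.13% in eGFP. All shares overlapped in the high ones. With counts in place of TPM, Syt7 overlapped in the middle libraries, at 8.55 to 9.51% in eGFP-GluA2 and 9.49 to 10.3% in eGFP. Sv2c did not overlap there, at 0.82 to 1.23% in eGFP-GluA2 and 0.55 to 0.75% in eGFP. Nor did Sv2a in the low libraries, at 97.0 to 97.6% in eGFP-GluA2 and 97.7 to 98.4% in eGFP. Sets of 2 and 3 libraries separate often, as the CPM of all genes shows above (9.23% wholly above and 15.3% wholly below in the low libraries), and the shares of a family are not independent. A share is free of a shift common to all genes, which the TPM values held. In the low-background libraries the median log2(TPM + 0.5) of 10589 genes was higher in eGFP-GluA2 by 0.40, and the release genes were higher by 0.36 (Cplx1) to 0.96 (Sv2c) on that scale.

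**Figure D5:**
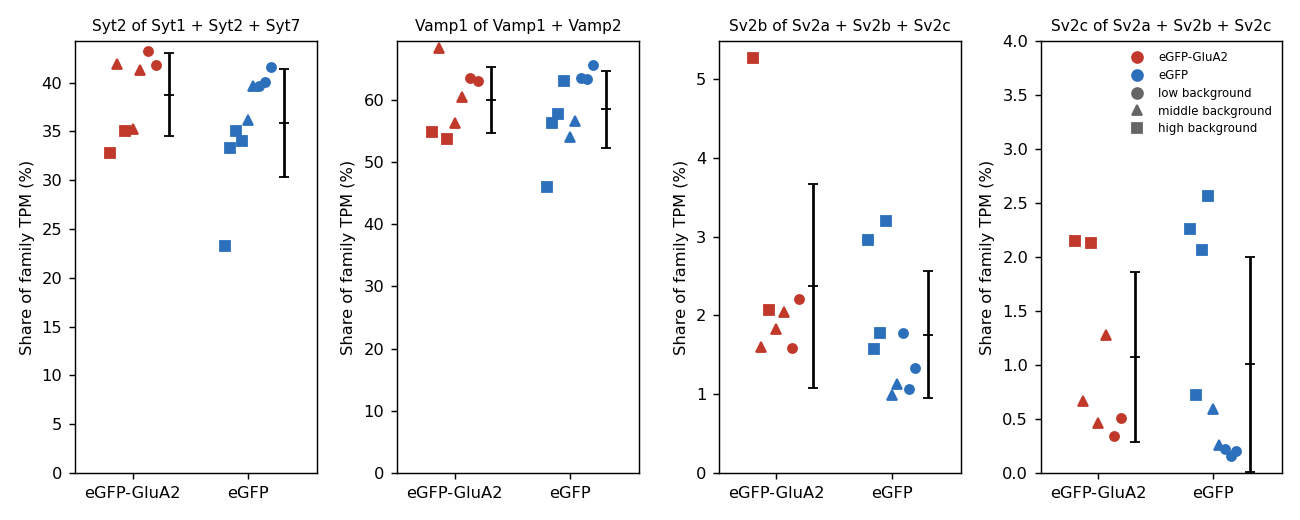
Share of the family TPM in each library for Syt2, Vamp1, Sv2b and Sv2c, eGFP-GluA2 at the left and eGFP at the right. Point shapes give the background, and bars are mean ± SD (n = 7 and 9). The groups overlap in each panel, eGFP replicate 1 is lowest for Syt2 at 23.3%, and eGFP-GluA2 replicate 1 is highest for Sv2b at 5.27%.

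The other release genes, 54 in 5 lists, did not pass the test in either direction. None had an adjusted p under 0.05 in edgeR or DESeq2, 0 had an unadjusted p under 0.05 in either tool, and 40 of 54 had a log2 fold change above 0 in edgeR (34 in DESeq2), against 45.5% of all genes in edgeR. With the background covariate 35 of 54 were above 0, against 53.1% of all genes, and 1, Doc2a, had an unadjusted p under 0.05. Abundant genes moved together with the background, so these signs are not independent. A share over genes of like level was not computed. Of 9 SNARE core genes and cofactors, 5 were above 0; the smallest p-values were those of Stx1a, a plasma membrane syntaxin, at 0.08 ± 0.10 and Napb, a SNAP that recycles SNAREs, at -0.08 ± 0.26. Of 16 genes of the active zone and priming, 12 were above 0. Rab3b, a vesicle GTPase, was at 0.32 ± 0.26 and Unc13a, the priming factor Munc13-1, at 0.17 ± 0.14. Of 13 other calcium sensors and complexins, 10 were above 0. Syt5 was at 0.28 ± 0.17 and Doc2a, a sensor of high calcium affinity, at 0.38 ± 0.33 (with the covariate 0.43 ± 0.18, with an unadjusted p of 0.023 and an adjusted p of 1.00). Of 11 other vesicle proteins, 8 were above 0, with Syn3, a synapsin, at -0.11 ± 0.10 and Synpr, synaptoporin, at 0.12 ± 0.14. All 5 genes of vesicle endocytosis were above 0, with Bin1 at 0.05 ± 0.15 and the dynamin Dnm1 at 0.05 ± 0.29, but with the covariate 2 of 5 were above 0. These values compare log2 fold changes only, not levels.

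Genotype and a straight-line term in the log2 background were taken out of the log2 CPM. The 7 abundant release genes still varied together over the 16 libraries in the residuals. Pearson's r of these residuals was 0.78 to 0.97 over their 21 pairs. Cplx2 had r = 0.53 to 0.80 with the 7, Sv2c 0.05 to 0.21 and Sv2b -0.40 to -0.26. The pairs share a library and its depth, and with 5892 genes compared, 418 (7.09%) had r above 0.9 with Syt2. The 5 genes most like Syt2 were Lgi2, Adam23, Kcna1, Kcng4 and Tmem59, each with r = 0.97 and Spearman's rho of 0.89 to 0.94. Adam23 is a receptor of LGI proteins, Kcna1 and Kcng4 are potassium channel subunits. Without eGFP replicates 1 and 5, whose Syt2 residuals were farthest from the median, r was 0.94 to 0.97. The gene most like Sv2b was Slc17a7 (r = 0.71, rho = 0.61), followed by Edrf1, Adamts20, Gas5 and Gpr61 (r = 0.58 to 0.68). Without eGFP-GluA2 replicate 3 and eGFP replicate 6, r was 0.76 for Slc17a7 and 0.21 for Gpr61. The gene most like Sv2c was Ptpro, a receptor tyrosine phosphatase, at r = 0.67 (rho = 0.67), and 0.53 without eGFP replicates 8 and 9.

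The windows before the start sites are printed for Syt2, Cplx1, Vamp1, Sv2b and Sv2c, of Sv2b only the most upstream of several. Of the release genes, Syt2, Vamp1 and Cplx1 had the largest rise from high to low background, Sv2b the smallest, and Sv2c fell. A rise was not particular to them, as 98.0% of genes with a mean log2 CPM of at least 5 had one. A link between motifs and the background was not tested. RefSeq promoter windows on GRCm38.p6 were matched for 8 of the 10 genes, 13 windows of 250 bases before a start, with Syt7 and Vamp2 named only. Each was searched on both strands for AAGGTCA, bound by estrogen-related receptors, for GGGCGG, the GC box, and for TATAAA, the TATA box. Matches are in capitals and read on either strand; the motifs do not overlap here.

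Syt2 (chr1:134646362-134646611, plus strand): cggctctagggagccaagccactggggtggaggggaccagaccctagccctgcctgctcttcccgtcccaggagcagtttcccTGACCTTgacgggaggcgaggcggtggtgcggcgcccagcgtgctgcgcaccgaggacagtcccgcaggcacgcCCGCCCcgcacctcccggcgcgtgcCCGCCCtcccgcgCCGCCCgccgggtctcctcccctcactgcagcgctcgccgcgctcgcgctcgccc
Syt2 (chr1:134709050-134709299, plus strand): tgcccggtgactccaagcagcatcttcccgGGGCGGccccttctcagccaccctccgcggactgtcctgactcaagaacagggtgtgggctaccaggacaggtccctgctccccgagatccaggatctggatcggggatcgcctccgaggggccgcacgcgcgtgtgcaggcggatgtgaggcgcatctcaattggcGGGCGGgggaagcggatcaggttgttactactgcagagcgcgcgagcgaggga
Cplx1 (chr5:108550028-108550277, minus strand): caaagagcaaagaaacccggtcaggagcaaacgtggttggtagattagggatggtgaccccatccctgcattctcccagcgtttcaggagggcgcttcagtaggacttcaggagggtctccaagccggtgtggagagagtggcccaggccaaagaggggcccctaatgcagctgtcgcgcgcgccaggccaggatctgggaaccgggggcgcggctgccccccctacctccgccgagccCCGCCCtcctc
Vamp1 (chr6:125215331-125215580, plus strand): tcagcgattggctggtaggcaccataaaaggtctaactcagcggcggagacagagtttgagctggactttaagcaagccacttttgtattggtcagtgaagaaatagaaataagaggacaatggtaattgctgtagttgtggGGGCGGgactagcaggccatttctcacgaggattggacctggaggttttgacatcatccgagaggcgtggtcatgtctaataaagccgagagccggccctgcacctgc
Sv2b (chr7:75309263-75309512, minus strand): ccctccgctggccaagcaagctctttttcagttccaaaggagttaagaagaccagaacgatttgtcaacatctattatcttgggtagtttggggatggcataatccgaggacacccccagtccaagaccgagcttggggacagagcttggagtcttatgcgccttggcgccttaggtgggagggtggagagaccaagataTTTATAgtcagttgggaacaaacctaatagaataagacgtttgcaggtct
Sv2c (chr13:96132578-96132827, minus strand): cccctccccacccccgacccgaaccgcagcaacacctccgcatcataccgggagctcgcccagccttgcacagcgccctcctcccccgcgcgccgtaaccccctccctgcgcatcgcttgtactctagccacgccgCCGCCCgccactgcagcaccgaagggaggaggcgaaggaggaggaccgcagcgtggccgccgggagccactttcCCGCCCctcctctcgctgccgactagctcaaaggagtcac

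AAGGTCA stood in 1 of the 13 windows, the upstream start of Syt2, and in 4.08% of the 32851 RefSeq windows of the same length. GGGCGG stood in 7 of 13 windows, those of 6 of the 8 genes, and in 32.7% of all windows. TATAAA stood in 2 of 13, both of Sv2b, and in 12.4% of all windows. Of these 2, the window printed above is that of the most upstream Sv2b start, and the other is chr7:75308387-75308636. The Sv2b windows chr7:75220020-75220269 and chr7:75302610-75302859, not printed, held none of the motifs. A match describes the letters only, and whether a factor binds there was not measured.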

How the data were processed

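The authors ran bcbio-nextgen 1.2.3 with STAR alignment on GRCm38, Sailfish quantification and DESeq2 tests, per the series' design text. The deposited count table holds whole reads per gene as the authors made it, not normalized; its counter and its use of strand are not stated. The TPM values are the authors' second deposited table, scaled for transcript length. The authors' deposited comparison table holds signal values (counts divided by a size factor), log2 fold changes, a test statistic (a score) and p-values. All (100%) of its signal values were whole multiples of 1 read within a tolerance of 0.001. The reads recovered from it, 10477517 to 17382059 per library, gave 3 called genes of 23712.

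GENCODE M21 (GRCm38) named 54495 of 54532 genes. The main test was edgeR 4.0.16 on the counts with TMM scaling, filterByExpr, robust quasi-likelihood F tests, Benjamini-Hochberg adjustment over 26257 genes and a threshold of 0.05. The log2 CPM has a prior count of 2, and CPM has none. SEs come from the F statistic. The background sums the CPM of 1721 autosomal receptor genes of the olfactory and vomeronasal families, split at 500 and 1500 CPM. DESeq2 1.42.0, limma 3.58.1 on log2(TPM + 0.5), sva 3.50.0, other scalings and filters, the replicate block and leaving out each library were alternatives. Fits on recovered reads and without the high-background libraries were added after seeing the data. So were the fit on the libraries of the replicate block without that block, and leaving out each library with the background covariate. Total-count scaling, also added then, was used for differences between high- and low-background libraries and not for a genotype fit. Named genes are the 10 release genes, the 2 of smallest p in each list where none passed, and the 5 most like Syt2, Sv2b and Sv2c in residual log2 CPM. The gene models share 0 to 1.61% of their 31-base words with other genes, except Syt7 with 4.84%. The genes and lists were chosen with earlier results of these data known. R 4.3.3 and Python 3.11.15 were used.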

Additional observations from a re-analysis of the deposited data

Results flagged for a closer look

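Of 40 sets of values tested, 6 held a library far from the others of its group, where chance gives about 1 in 20. In the eGFP group, replicate 1, a high-background library, had the highest Syt1 share of synaptotagmin TPM at 68.1% and the lowest Syt2 share at 23.3%. The same library had the lowest Cplx1 share at 95.2% and thus the highest Cplx2 share at 4.85%. In the eGFP-GluA2 group, replicate 1, also of high background, had the lowest Sv2a share of SV2 TPM at 92.6% and the highest Sv2b share at 5.27%. The shares of 1 family add up to 100%, so the values of a family are not independent.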

How the results depend on the processing

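No release gene passed the threshold in any of 51 settings, and the lowest adjusted p was 0.455 (Sv2c with the background covariate, without eGFP replicate 2). The log2 fold change was above 0 in 51 settings for Sv2c, 50 for Sv2b and Sv2a, 49 for Syt2, 41 for Vamp1, 38 for Cplx1, 34 for Syt1, 30 for Syt7, 23 for Cplx2 and 15 for Vamp2. The count of called genes, 1 in edgeR, was 14 in DESeq2, 9 with the background covariate, 11 with background tiers, 10 with 1 surrogate variable, 2 with upper-quartile scaling, with excitatory markers and background, without the 6 high-background libraries and in each of the 4 TPM fits, 3 on recovered reads, 5 on those with the covariate, and 1 without each library. The cause of these changes was not tested.

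The small fold changes changed sign. With tiers they were -0.094 (Syt1), -0.016 (Syt2), -0.11 (Syt7), -0.10 (Cplx1), -0.10 (Cplx2), -0.10 (Vamp1) and -0.024 (Sv2a). Without the high-background libraries they were -0.061 (Syt1), -0.016 (Syt2), -0.068 (Syt7), -0.11 (Cplx1), -0.016 (Cplx2) and -0.075 (Vamp1), with Sv2c at 1.01 ± 0.26. With the covariate they were -0.0059 (Syt1), -0.0077 (Syt7) and -0.018 (Cplx2). With excitatory markers and background they were -0.079 (Syt7), -0.22 (Cplx2), 0.046 (Vamp2) and -0.038 (Sv2b). Cplx2 was -0.0095 in DESeq2 and with RLE scaling, -0.0094 with upper-quartile scaling, -0.0030 with the surrogate variable, -0.045 on recovered reads and -0.053 on these with the covariate, where Syt7 was -0.014. Vamp2 was 0.12 in each TPM fit. Within middle-background libraries Sv2b was 0.78, and within low-background ones Sv2c was 1.28.

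Leaving out 1 library gave -0.065 to 0.11 (Syt1), 0.0084 to 0.25 (Syt2), -0.057 to 0.099 (Syt7), -0.070 to 0.16 (Cplx1), -0.075 to 0.075 (Cplx2), -0.052 to 0.18 (Vamp1), -0.14 to 0.068 (Vamp2), 0.018 to 0.21 (Sv2a), 0.29 to 0.50 (Sv2b) and 0.35 to 0.58 (Sv2c). With the covariate it gave 0.29 to 0.44 for Sv2b and 0.51 to 0.68 for Sv2c.

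The labels do not say what a shared replicate number marks. The numbers were thus not taken as pairs in the main test. Same-numbered deviations correlated at 0.888, 0.628, 0.892, -0.0285, 0.193, 0.215 and 0.904, and replicates 2 and 7 matched their own number best. As 84.0% of the variance lay on the component that follows the background, these correlations can neither show nor exclude pairs. With a replicate block on libraries 1 to 7 there were 4 called genes and 1908 at an unadjusted p under 0.05, against 1 and 300 on these libraries without the block. Vamp2 was at 0.11 with the block and 0.066 without, Syt2 at 0.39 ± 0.17 and 0.33 ± 0.36, Vamp1 at 0.30 ± 0.16 and 0.26 ± 0.34, Cplx1 at 0.27 ± 0.17 and 0.21 ± 0.33, Sv2a at 0.27 ± 0.18 and 0.24 ± 0.30, Sv2b at 0.42 ± 0.12 and 0.42 ± 0.19 and Sv2c at 0.27 ± 0.16 and 0.23 ± 0.20. The Sv2c values rest on 33 to 188 counts per library.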
